A study of Mus musculus with 4 samples.

Results

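Ephrin-A ligands and EphA receptors were examined in mouse pancreatic islet cells given the peptide MOTS-c or a scrambled peptide. The genes considered were Efna1, Efna2, Efna3, Efna4 and Efna5, which encode ligands, and Epha2, Epha3, Epha4, Epha5 and Epha7, which encode receptors. These 10 genes were reached by every gene probe whose transcript accession maps to their symbols, which gave 19 probes of the 56605 gene probes on the array. Each of the 19 probes lay on 1 spot. The genes had been chosen with the difference between MOTS-c and scrambled in view, so their differences are described here. Calls on them are counted below beside the shares of all probes and are no test of them.

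The study compared islet cells of 60-week-old C57BL/6 mice, labeled as male, after 24 h of culture with 10 μM MOTS-c or 10 μM scrambled peptide. MOTS-c is a short peptide encoded in the mitochondrial genome, and the scrambled peptide is its control. The islets came from littermates and were picked by hand, then dispersed to single cells before treatment, so all 4 arrays carried RNA of cultured, dispersed islet cells. The scrambled group held replicates 1 and 2 and the MOTS-c group held replicates 2 and 3, which gives 2 arrays per group.

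Eph receptors are receptor tyrosine kinases that bind ephrins on the surface of a neighboring cell. Ephrin-A ligands are held in the membrane by a lipid anchor and bind mainly EphA receptors, while ephrin-B ligands cross the membrane and bind mainly EphB receptors. Binding sends a forward signal into the cell with the receptor and a reverse signal into the cell with the ligand. Between beta cells, forward signaling through EphA receptors is known to restrain insulin secretion and reverse signaling through ephrin-A ligands to favor it, with EphA5 and ephrin-A5 as the pair studied most.

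The promoters of Efna5, Epha5 and Efna1 are shown because these genes had the differences described in most detail below. The sequences are from RefSeq on assembly GRCm38.p6, run 5′ to 3′ on the minus strand, where each of the genes lies, and span 250 bases before to 50 bases after an annotated start. Capitals mark the core of the antioxidant response element, TGACNNNGC, which had 1 match in the Efna5 promoter. Efna1 has a pair of annotated starts, and both windows are shown.
Efna5, chr17:62881268-62881567: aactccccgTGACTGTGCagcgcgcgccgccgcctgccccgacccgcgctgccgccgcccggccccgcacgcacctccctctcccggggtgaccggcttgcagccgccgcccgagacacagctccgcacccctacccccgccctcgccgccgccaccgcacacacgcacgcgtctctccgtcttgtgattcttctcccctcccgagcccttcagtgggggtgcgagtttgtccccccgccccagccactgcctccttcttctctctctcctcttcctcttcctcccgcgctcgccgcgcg
Epha5, chr5:84417333-84417632: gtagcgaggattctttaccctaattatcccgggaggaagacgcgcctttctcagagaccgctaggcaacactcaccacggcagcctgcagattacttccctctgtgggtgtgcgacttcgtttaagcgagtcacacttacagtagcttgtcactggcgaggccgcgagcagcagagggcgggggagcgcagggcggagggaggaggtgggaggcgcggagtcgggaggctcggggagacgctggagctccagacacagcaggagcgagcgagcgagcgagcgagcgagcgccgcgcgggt
Efna1, chr3:89279596-89279895: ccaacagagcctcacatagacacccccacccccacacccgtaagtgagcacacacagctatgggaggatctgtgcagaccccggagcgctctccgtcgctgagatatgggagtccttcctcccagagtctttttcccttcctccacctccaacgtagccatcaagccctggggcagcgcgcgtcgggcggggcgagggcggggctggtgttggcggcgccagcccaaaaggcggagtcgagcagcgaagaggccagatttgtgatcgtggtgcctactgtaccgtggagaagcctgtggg
Efna1, chr3:89280902-89281201: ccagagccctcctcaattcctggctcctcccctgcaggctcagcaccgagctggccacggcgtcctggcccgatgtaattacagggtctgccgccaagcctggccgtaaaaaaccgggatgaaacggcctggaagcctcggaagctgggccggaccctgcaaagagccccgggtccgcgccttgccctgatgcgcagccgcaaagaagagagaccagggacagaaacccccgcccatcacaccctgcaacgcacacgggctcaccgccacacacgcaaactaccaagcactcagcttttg

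All 10 genes had a promoter in the table, with 13 entries in all. The Efna5 window held 38 CpG dinucleotides at 73.3% GC and the Epha5 window held 30 at 64.3% GC. The median over 32851 promoters was 7 CpG dinucleotides and 52.7% GC. Both Efna1 windows held 20 CpG dinucleotides. The antioxidant core was searched on both strands and occurred in 12.4% of all promoters. The cyclic AMP response element, TGACGTCA, occurred in 1.79% of all promoters and in Epha2 among the 10 genes. The TATA box letters TATAAA occurred in 13.6% of all promoters and in 0 of the 13 windows. These matches describe the letters in the windows and nothing beyond them.

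Between 61.6% and 65.0% of gene spots were well above their local background on the 4 arrays, 0 gene spots were saturated, and all arrays lay on 1 slide. A filter on dim spots left 35087 probes for the limma comparison of the treatments. Precision is limited by the number of arrays, and 0.333 is the smallest two-sided p of an exact permutation test with 2 arrays against 2. No probe passed an adjusted p of 0.05, and 2755 had an unadjusted p under 0.05. P-values set a difference against the spread between arrays of a group, which limma moderates with that of all probes. They cover these 4 samples only. The 7 probes of 4 Y-linked genes were well above background on none of the arrays (0 of 28 readings). The probe of Xist was well above background on all 4, which goes against the label of male animals. Of 10 beta cell markers, 9 were tested and Ucn3 was not well above background. Their summed normalized signal was 901031 and 923472 units with the scrambled peptide against 884858 and 897249 with MOTS-c. The markers behind this sum went both ways, 3 higher and 6 lower. Of the 9, 7 did not overlap between the groups, where 38.0% of all probes did not overlap. Slc2a2, the glucose transporter of mouse beta cells, differed by -1.33. It was the 1 marker of the list that met the second call rule, an unadjusted limma p under 0.05 with 1.5-fold. Of all probes, 3.53% met that rule. The summed signal of the acinar cell markers was lower on both MOTS-c arrays, at 2529 and 2057 units against 3606 and 3940, with Cpa1, Pnlip and Rbpjl not well above background. Of the 3 measured acinar markers, Cela1 was lower on both MOTS-c arrays with a difference of -0.76, Cel overlapped between the groups at -0.14, and Ctrb1 was higher on both at 0.33. The summed mesenchymal cell markers were also lower on both MOTS-c arrays, at 165 and 141 units against 202 and 235, and 5 of the 7 were not well above background. Of the other 2, Pdgfra was lower on both MOTS-c arrays at -1.05 and Col1a2 overlapped at -0.30.

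Probes of 7 of the 10 genes were measured and those of the other 3 were not. Of the 19 probes, 12 were well above background and 7 were not well above background on any array. Efna4, Epha3 and Epha4 had no probe well above background. EphA4 is a receptor that binds both ephrin classes. The 7 dim probes gave spots of 0.786 to 1.48 times the local background. For Efna3 and Epha5, some probes were dim while another was measured.

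**Figure D1:**
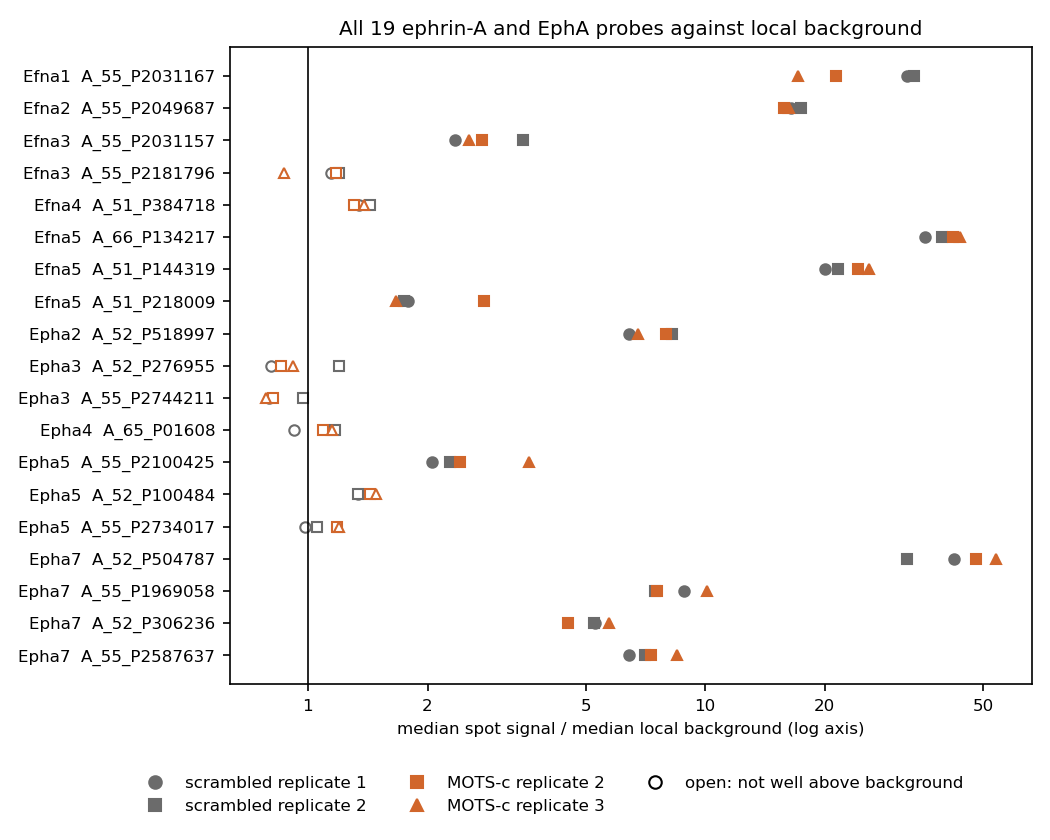
Ratio of the median spot signal to the median local background (log axis) for all 19 ephrin-A and EphA probes on each of the 4 arrays, with open symbols where the spot was not well above background. The dim probes sit between 0.786 and 1.48, and the Epha5 probe that was measured sits between 2.05 and 3.61.

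Among the ligands, Efna1 was lower with MOTS-c, the 3 probes of Efna5 were on average higher, and Efna2 and the rule-based probe of Efna3 differed little. Signals are given as log2 of the processed intensity after quantile normalization, and differences as MOTS-c minus scrambled on the same scale with the standard error of the limma fit.

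Efna1 encodes ephrin-A1, a ligand first known from endothelial cells stimulated by inflammatory cytokines. Its probe A_55_P2031167 read 10.08 and 10.05 on scrambled replicates 1 and 2 and 9.72 and 9.24 on MOTS-c replicates 2 and 3. The MOTS-c signals were both under the scrambled ones, by a gap of 0.33, and MOTS-c replicate 3 was the lowest. The difference was -0.59 ± 0.20 (SE, n = 2 per group), or 1.5-fold lower with MOTS-c, which is just inside the 1.5-fold limit of the second call rule. The spot was 32.2 and 33.4 times its local background on the scrambled arrays and 21.4 and 17.1 times on the MOTS-c arrays. Without MOTS-c replicate 3 the difference was -0.35. The acinar and mesenchymal cell marker sums were lower on the same arrays, although the 3 measured acinar markers went both ways. They were not alone in this. The beta cell sum, whose markers also went both ways, and the Schwann cell sum, from 1 measured gene, were lower on both MOTS-c arrays too. The endothelial cell marker sum overlapped between the groups, at 7041 and 6347 units with MOTS-c against 6093 and 7038. The part of these cell types in the Efna1 value was not tested. In RNA from mixed cells, fewer cells of a type and less RNA per cell cannot be told apart.

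Efna2 encodes ephrin-A2, a ligand best known from the mapping of nerve fibers in the brain. Its probe A_55_P2049687 read 9.22 and 9.28 with the scrambled peptide against 9.18 and 9.07 with MOTS-c. The groups did not overlap, but the gap between them was 0.04 and the difference was -0.12 ± 0.12 (SE, n = 2 per group). The difference was thus no larger than its standard error. Without MOTS-c replicate 3 it was -0.068.

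Efna3 encodes ephrin-A3, and its gene neighbors Efna1 and Efna4 on chromosome 3. Its probe A_55_P2031157 read 6.07 and 6.34 with the scrambled peptide against 6.31 and 6.14 with MOTS-c. The groups overlapped, and the difference was 0.017 ± 0.16 (SE, n = 2 per group). The sign turned with the normexp background correction, without scrambled replicate 1 and without MOTS-c replicate 2, over a range of -0.12 to 0.15. A further Efna3 probe, A_55_P2181796, was dim on all arrays. A probe that the study's own list of changed probes assigns to Efna3, A_51_P186203, carries an Ensembl accession on the array and is not reached by the rule. It read 4.80 and 4.38 with the scrambled peptide against 5.23 and 5.13 with MOTS-c. On that probe the MOTS-c signals both exceeded the scrambled ones, with a difference of 0.59 ± 0.18 (SE, n = 2 per group). Its spot was only 1.44 to 1.67 times its local background, and the list that names it was chosen on these same arrays. The probes assigned to Efna3 therefore disagree, and which transcript each one reads was not examined.

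Efna5 encodes ephrin-A5 and was the ligand with the most probes. Probe A_66_P134217 read 10.35 and 10.40 with the scrambled peptide against 10.65 and 10.87 with MOTS-c, a difference of 0.38 ± 0.14 (SE, n = 2 per group), or 1.30-fold. The MOTS-c signals were both over the scrambled ones, by a gap of 0.25. Probe A_51_P144319, assigned to the same RefSeq transcript, read 9.21 and 9.09 with the scrambled peptide against 9.59 and 9.59 with MOTS-c. Here the MOTS-c arrays were nearly equal and again above, by a gap of 0.38, with a difference of 0.44 ± 0.12 (SE, n = 2 per group), or 1.35-fold. Probe A_51_P218009, assigned to another transcript, read 4.70 and 4.53 with the scrambled peptide against 6.15 and 4.65 with MOTS-c. MOTS-c replicate 2 stood apart on this probe while MOTS-c replicate 3 lay among the scrambled arrays, so the groups overlapped, and the difference of 0.78 ± 0.51 rested on 1 array. Without MOTS-c replicate 2 it was 0.034 and without MOTS-c replicate 3 it was 1.55. With the normexp correction it was 0.22. This spot was 1.67 to 2.77 times its local background, against 35.8 to 43.8 times for the brightest probe. The mean over the 3 probes was 0.53, and it includes the probe carried by 1 array. The promoter of this gene is the one with the antioxidant core printed above, which occurred in 12.4% of all promoters. Any link of that match to these values was not tested.

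**Figure D2:**
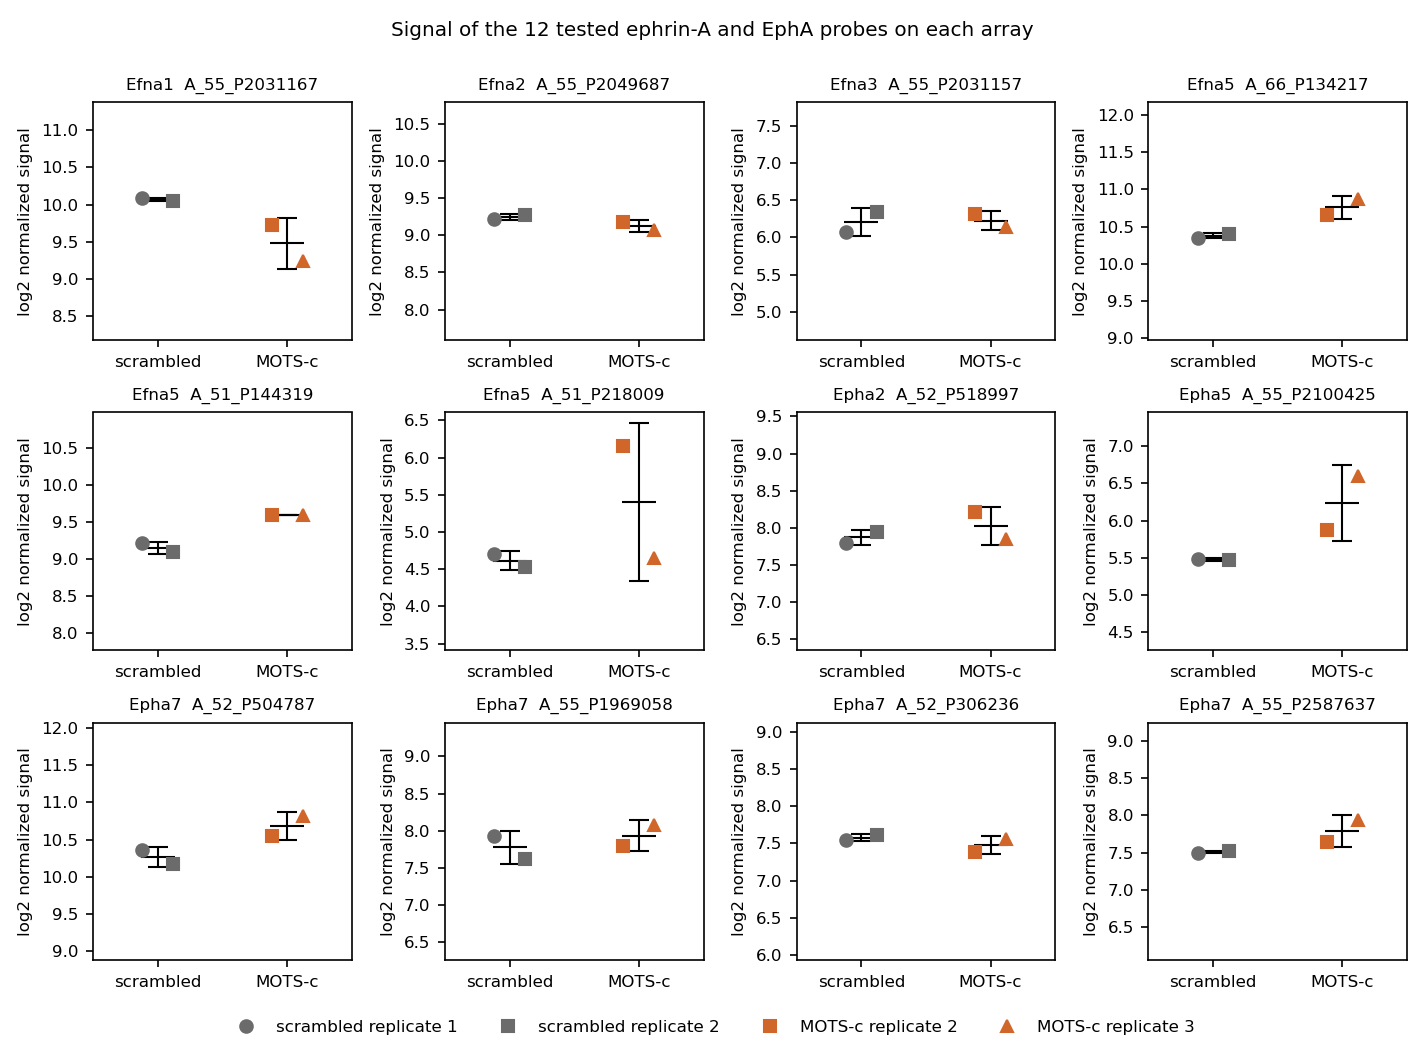
Log2 normalized signal of the 12 measured ephrin-A and EphA probes on each array, one panel per probe and the same span of log2 units in each, with points for arrays and bars for group means with their standard deviation (n = 2 per group). Efna1 lies at 9.72 and 9.24 with MOTS-c against 10.08 and 10.05, the brightest Efna5 and Epha7 probes lie higher on both MOTS-c arrays, and Efna5 probe A_51_P218009 is high on MOTS-c replicate 2 alone.

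Among the receptors, Epha5 had the difference of greatest size, Epha7 differed by probe, and Epha2 overlapped between the groups. Epha2 encodes EphA2, a receptor for ephrin-A1 found in many epithelia. Its probe A_52_P518997 read 7.80 and 7.95 with the scrambled peptide against 8.21 and 7.85 with MOTS-c. MOTS-c replicate 3 lay between the scrambled arrays, and the difference was 0.16 ± 0.17 (SE, n = 2 per group). Without MOTS-c replicate 2 it was -0.024.

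Epha5 encodes EphA5, the receptor partnered with ephrin-A5 in work on beta cells. Its measured probe A_55_P2100425 read 5.49 and 5.46 with the scrambled peptide against 5.87 and 6.59 with MOTS-c. The MOTS-c signals both exceeded the scrambled ones, by a gap of 0.38, with MOTS-c replicate 3 the highest. The difference was 0.76 ± 0.27 (SE, n = 2 per group), or 1.69-fold. MOTS-c replicate 2 was 0.39 above the scrambled mean and MOTS-c replicate 3 was 1.12 above it. Without MOTS-c replicate 3 the difference was 0.39, and it was also 0.39 with the normexp correction. The spot was 2.05 and 2.28 times its local background on the scrambled arrays and 2.42 and 3.61 times on the MOTS-c arrays. The other 2 Epha5 probes, A_52_P100484 and A_55_P2734017, were dim on all 4 arrays, at 1.33 to 1.48 and 0.986 to 1.20 times background. The difference thus rests on 1 of 3 probes, and that probe is close to background.

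Epha7 encodes EphA7, a receptor that binds ephrin-A5 and is known from the developing brain. Probe A_52_P504787 read 10.36 and 10.17 with the scrambled peptide against 10.55 and 10.82 with MOTS-c. Both MOTS-c arrays were above, by a gap of 0.19, with a difference of 0.42 ± 0.16 (SE, n = 2 per group), or 1.34-fold. The other 3 probes are assigned to a different transcript from this one. Probe A_55_P2587637 read 7.50 and 7.52 with the scrambled peptide against 7.64 and 7.94 with MOTS-c, with MOTS-c above by a gap of 0.12 and a difference of 0.28 ± 0.15. Probe A_55_P1969058 read 7.93 and 7.62 with the scrambled peptide against 7.79 and 8.08 with MOTS-c, a difference of 0.16 ± 0.18. Its groups overlapped, as did those of A_52_P306236. That last probe read 7.54 and 7.61 with the scrambled peptide against 7.39 and 7.56 with MOTS-c, a difference of -0.10 ± 0.13. Without MOTS-c replicate 3 the difference of A_55_P2587637 was 0.13 and that of A_55_P1969058 was 0.0093. Without MOTS-c replicate 2 the difference of A_52_P306236 was -0.013, and without MOTS-c replicate 3 it was -0.19. The mean over the 4 probes was 0.19, smaller than the 0.42 of the brightest probe, and the probes did not share a direction.

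Of the 12 measured probes, 9 were higher and 3 lower with MOTS-c, where 52.9% of all 35087 probes were higher. Their median difference was 0.22, against a median of 0.014 over all probes. Efna5 gave 3 of the 12 probes, all higher, and Epha7 gave 4, of which 3 were higher. Probes of the same gene are not independent readings. The groups did not overlap for 7 of the 12 probes, 5 with MOTS-c above and 2 below, where 38.0% of all probes did not overlap, 19.4% above and 18.6% below. None of the 12 passed an adjusted p of 0.05 in limma, with 0.0% of all probes, and 4 had an unadjusted p under 0.05, with 7.85% of all probes. An unadjusted p under 0.05 together with 1.5-fold was met by the Epha5 probe, higher, and the Efna1 probe, lower, with 3.53% of all probes, 1.1% higher and 2.43% lower. Nothing is read from these counts, calls or shares, since the genes were chosen from this comparison and passing is partly fixed by that choice. Of the 2 genes with several measured probes, the probes of Efna5 shared a direction and those of Epha7 did not.

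The 2 MOTS-c arrays did not contribute equally. MOTS-c replicate 3 lay farther from the scrambled mean on 8 of the 12 probes and MOTS-c replicate 2 on 4, and over all probes replicate 3 lay farther on 61.3%. On 2 of the 12 probes, those of Efna3 and Epha2, the MOTS-c arrays lay on opposite sides of the scrambled mean.

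**Figure D3:**
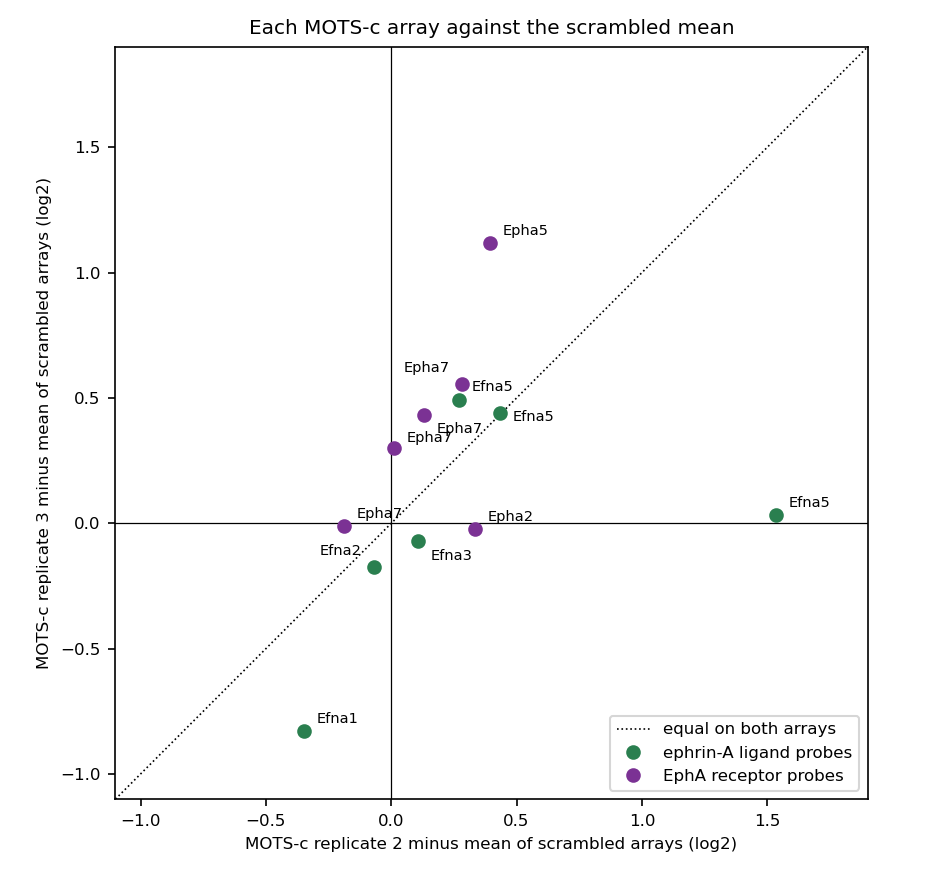
Difference of MOTS-c replicate 2 (x axis) and MOTS-c replicate 3 (y axis) from the mean of the scrambled arrays in log2 units, for the 12 measured probes, with a dotted line where both arrays are equal. Epha5 lies above the line at 0.39 and 1.12, Efna1 below 0 on both axes at -0.35 and -0.83, and Efna5 probe A_51_P218009 lies at 1.53 and 0.032.

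Across 11 alternative settings, 10 of the 12 probes kept the direction of their difference, and those of Efna3 and Epha2 did not. The methods' t-test and limma with a trend reuse the same normalized signals, so they could not change a direction. The authors' rounded table holds nearly the same values. Leaving out single arrays moved the Efna1 difference between -0.82 and -0.35 and the Epha5 difference between 0.39 and 1.11. The brightest probes of Efna5 and Epha7 moved between 0.27 and 0.49 and between 0.28 and 0.56.

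**Figure D4:**
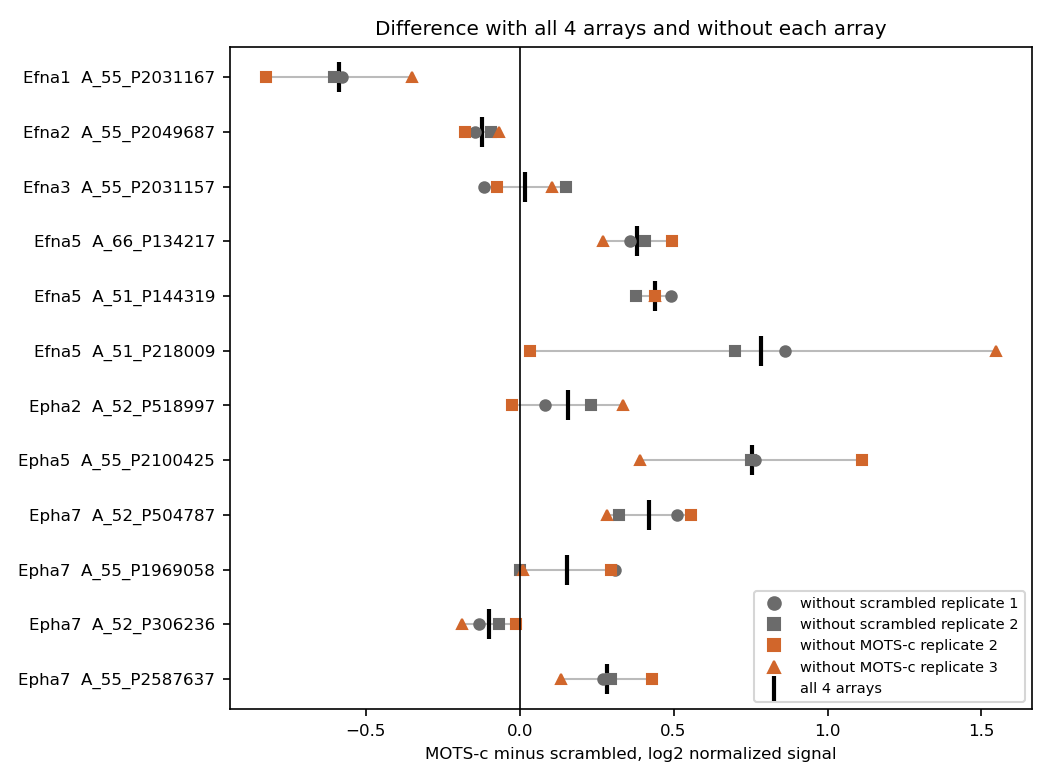
Log2 difference, MOTS-c minus scrambled, of the 12 measured probes with all 4 arrays (bar) and without each array in turn (symbols). Efna1 spans -0.82 to -0.35, Epha5 spans 0.39 to 1.11, and Efna5 probe A_51_P218009 spans 0.034 to 1.55, wider than the span of the other Efna5 probes.

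The rest of the family comprised 12 genes with 18 probes, of which 10 probes of 8 genes were tested. Epha6, Epha10, Ephb1 and Ephb4 were not well above background. 0 of the 10 probes passed an adjusted p of 0.05 in limma with Benjamini-Hochberg adjustment, 3 had an unadjusted p under 0.05, and 2 of these also passed 1.5-fold, where the shares of all probes were 7.85% and 3.53%. The median difference was 0.045, and 7 of the 10 did not overlap between the groups, against 38.0% of all probes. Efnb3, which encodes the ligand ephrin-B3, read 9.39 and 9.20 with the scrambled peptide against 8.61 and 8.20 with MOTS-c. Both MOTS-c arrays were lower, with a difference of -0.89 ± 0.19 and a limma adjusted p of 0.499. Epha8, a receptor for ephrin-A ligands, read 10.70 and 10.31 with the scrambled peptide against 9.78 and 9.93 with MOTS-c, with a difference of -0.65 ± 0.18 and a limma adjusted p of 0.539. Efnb2, which encodes ephrin-B2, read 9.13 and 9.12 with the scrambled peptide against 9.78 and 9.54 with MOTS-c. Its difference of 0.54 ± 0.14 had an unadjusted p under 0.05, stayed below 1.5-fold and had a limma adjusted p of 0.538. Epha1, another EphA receptor, differed by -0.51 ± 0.22 at a limma adjusted p of 0.684, with both MOTS-c arrays below. Ephb3 and Efnb1 differed by 0.22 and -0.29 at limma adjusted p-values of 0.740 and 0.723. The probes of Ephb2 and Ephb6 differed by 0.037 to 0.24. Of the ephrin-B genes, Efnb2 was higher while Efnb1 and Efnb3 were lower, with no overlap in any of the 3.

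**Figure D5:**
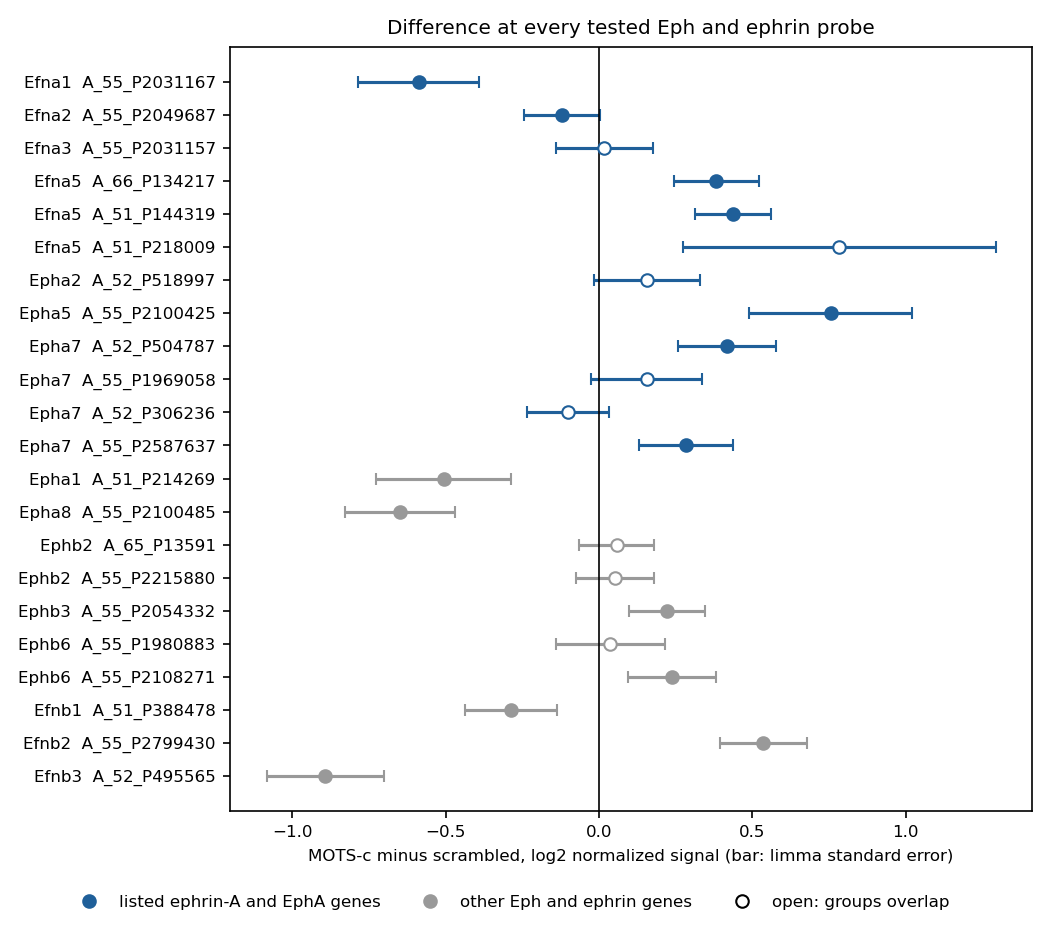
Log2 difference, MOTS-c minus scrambled, with its standard error for every measured Eph and ephrin probe, the listed ephrin-A and EphA genes in one color and the other genes in another, open where the groups overlap. Epha5 at 0.76 and Efna5 probe A_51_P218009 at 0.78 are the highest and Efnb3 at -0.89 the lowest.

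Proteins that act with Eph receptors were also counted. A list of 39 genes held kinases, adaptors, exchange factors and GTPases of Eph signaling and the phosphatases and proteases that end it. Of its 66 probes, 59 of 36 genes were tested and Anks1b, Mmp14 and Ptpro were not well above background. In limma, 0 of the 59 passed an adjusted p of 0.05, against 0.0% of all probes. An unadjusted limma p under 0.05 was met by 1 of the 59, against 7.85% of all probes. With 1.5-fold added, 0 of the 59 passed, against 3.53% of all probes. The median difference was -0.002, with 28 higher and 31 lower, over a range of -0.34 to 0.53. The groups did not overlap for 33.9% of these probes, against 38.0% of all probes. The 1 probe with an unadjusted p under 0.05 belonged to Adam17, a protease that sheds membrane proteins. It read 9.71 and 9.73 with the scrambled peptide against 10.18 and 10.31 with MOTS-c, with a limma adjusted p of 0.515, and is named after its values were seen.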

How the data were processed

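Gene expression of 4 islet cell samples was measured on Agilent SurePrint G3 Mouse GE 8X60K arrays with a single dye. Labeled RNA was hybridized and spots were quantified by the authors with Feature Extraction 11.0. The deposited intensity of each spot has its array's background subtracted and was not scaled to the other arrays. A second deposited table holds the same intensity values rounded, with ratios of 0.995 to 1.005 to the scanner values.

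Each array lost its 3671 control spots and 96 to 131 outlier spots, and log2 was taken. A probe was kept if at least 2 of 4 arrays had it well above background, a rule that stands in for the Flag A filter of the methods, which is not defined there. Kept probes were quantile normalized. The treatments were compared over 35087 probes by limma 3.58.1 (R 4.3.3) with Benjamini-Hochberg adjustment, with 2 residual and 2.64 prior degrees of freedom. A second call used an unadjusted p under 0.05 with at least 1.5-fold. Probes were named through the RefSeq gene table of GRCm38.p6 (33006 of 56605). The array was annotated on another build, so no probe coordinates are given.

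All 10 genes are described through every probe, and the brightest probe stands for a gene. The other 12 Eph and ephrin genes are named. Partner genes are named where no probe was well above background, and Adam17 is named for its unadjusted limma p under 0.05. Marker lists are given as counts and sums, and the measured markers named beside them were chosen after their values were seen. Some marker results are not reported here. The genes and lists were chosen with earlier results of these data known. Arrays within a group differed by a median of 0.164 (scrambled) and 0.189 (MOTS-c) in absolute log2 signal. The alternatives were a 75th percentile shift, the normexp correction with an offset of 50, the rounded table, no filter or a strict filter on dim probes, each array left out, limma with a trend, the methods' t-test and the mean over probes. The fit was tested on simulated data of this comparison, 35084 probes of which 200 carried a known change. For a log2 change of 1 the adjusted call found 0% of them, beside 2 false calls, and the second rule 97%, beside 391 false calls. The 12 measured ephrin-A and EphA probes differed by -0.588 to 0.783, which is less than that change. The lack of adjusted calls among them therefore says little. For a log2 change of 2 the adjusted call found 97%, beside 15 false calls. The simulated noise was independent between probes and arrays and used the moderated variance of the fit. These rates therefore need not hold for the real arrays.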

Additional observations from a re-analysis of the deposited data

How the results depend on the processing

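No probe of the 10 genes, of the other Eph and ephrin genes or of the partner genes passed an adjusted p of 0.05 under any alternative. Over all probes that count was 0 except with the methods' t-test, which called 1. The second rule called 1239 probes of the array, and 406 with the normexp correction, 457 with the methods' t-test and 1374 to 3264 with single arrays left out, the highest without MOTS-c replicate 2. Of the 12 ephrin-A and EphA probes it called 2, but 1 with the normexp correction and 0 with the methods' t-test. With the 75th percentile shift it called 1 of the 12, against 1373 of 35087 over the array. Without the filter it called 0 of their 19 probes, against 1736 of 56605 over the array. Of the other Eph and ephrin probes it called 2, but 0 with the methods' t-test and 1 to 4 with single arrays left out. Of the partner probes it called 0, but 4 without MOTS-c replicate 2 and 1 without MOTS-c replicate 3, so 0 to 4 with single arrays left out. The causes were not tested. Apart from the Efna3 and Epha2 probes, no ephrin-A or EphA probe changed sign. The median difference of all probes moved by under 0.1 under every scaling. Each scaling matches the arrays to one another, so that result was largely fixed in advance. With 1 slide, no slide block could be fitted. No paired analysis was possible because the groups share only replicate number 2. Signal over background limits the Epha5 probe, the Efna3 probes and the dimmest Efna5 probe.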
